A study of Mus musculus with 4 samples.

Results

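The 10 genes described here are regulators and early markers of endoderm: the transcription factor genes Gata6, Gata4, Sox17, Sox7, Foxa1 and Foxa2, the growth factor receptor gene Pdgfra, the endocytic adaptor gene Dab2, and the endocytic receptor genes Amn and Cubn. They were taken by symbol from the 20723 gene symbols of the expression table, where each of the 10 had 1 probe set. The values come from 4 expression arrays of E14 cells, an embryonic stem cell line derived from Ola129 mice, grown on gelatin in 15% serum with LIF, the cytokine that keeps such cells self-renewing. In the 2 control arrays the cells received esiRNA (short interfering RNAs cut from a long transcript) against GFP, and in the 2 silenced arrays with esiRNA against Ogt, the gene of the enzyme that adds O-GlcNAc to proteins. Total RNA was taken 48 h after transfection, and the labels name no other allele or agent in either group. The transfection was transient, and the labels do not give the share of cells it reached. Nothing in the labels tells whether replicates are separate cultures, so every p-value reflects the spread among these 4 samples alone, and that spread may be technical.

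Primitive endoderm is the layer of the early mouse embryo that gives rise to the parietal and visceral endoderm of the yolk sac, and definitive endoderm is the later layer that forms the gut. In the inner cell mass, signalling by FGF4 through its receptors favours Gata6, which opposes Nanog, and Pdgfra, Gata4, Sox17, Sox7 and Dab2 follow in the cells that become primitive endoderm. Embryonic stem cells kept in serum are known to hold a minority of cells that turn on such genes.

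All values are on the log2 scale, differences are silenced minus control, and a gene counts as called at an adjusted p under 0.05 over all 34760 probe sets in limma. None of the 10 genes was called, and neither was any other probe set (0 of 34760, or 0%). At an unadjusted p under 0.05 in limma there was 1 of the 10, Amn, against 6.06% of all gene symbols, so 1 in 10 is close to what the table as a whole showed. That count was 0 without control 1, 0 without control 2 and 2 without silenced 1, when it held Pdgfra and Dab2 in place of Amn. Without silenced 2 it was 1, with Sox17 in place of Amn. Ogt itself, which checks the labels, read 11.51 and 11.38 in control 1 and 2 and 9.73 and 10.09 in silenced 1 and 2. Its difference was -1.54 (SE 0.17, unadjusted p = 0.00057 and adjusted p = 0.674 in limma), so even the silenced gene was not called. That adjusted p was the smallest of all 34760 probe sets in this fit, and many probe sets shared it, Amn among them. Ogt was not first by unadjusted p, the smallest of which was 0.00011 in limma.

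For 4 of the 10 genes the silenced arrays lay wholly outside the control arrays: Dab2 and Pdgfra above them, Amn and Foxa2 below them. Of all gene symbols 39.5% showed such a gap, 20.0% above and 19.4% below. The other 6 genes overlapped between the groups. The median difference over the 10 genes was 0.03, with 6 higher and 4 lower (5 and 5 after quantile normalization, where Gata6 turns), beside a median of 0.00 over all gene symbols. The 10 genes spread more widely than the table as a whole, with a median absolute difference of 0.24 against 0.13. Their silenced arrays also lay farther apart from each other, with a median absolute gap of 0.46 against 0.18. These arrays measured RNA of whole cultures, so fewer cells that express a gene and less of its RNA per cell cannot be told apart.

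**Figure D1:**
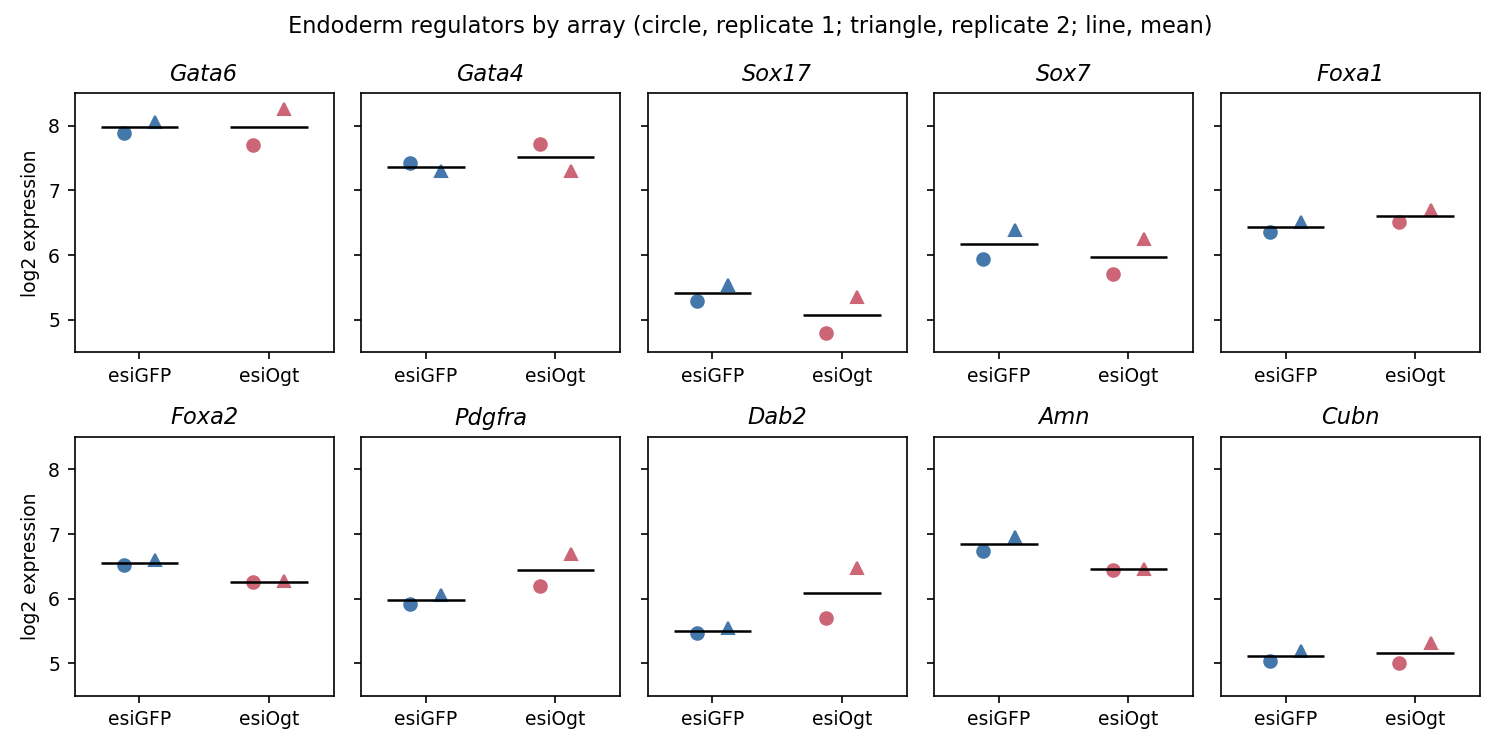
Log2 expression of each endoderm regulator (vertical axis) in the control arrays (esiGFP, blue) and the silenced arrays (esiOgt, red), with replicate 1 as a circle, replicate 2 as a triangle and the group mean as a line. The groups do not overlap for Foxa2, Pdgfra, Dab2 and Amn, and single values run from 4.80 for Sox17 to 8.26 for Gata6.

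Since the study's title sets Ogt beside TET proteins, which act on methylated CpG, the 250 bases before the start of transcription are shown for the 4 genes whose groups did not overlap. They come from RefSeq, build GRCm38.p6, run 5′ to 3′ toward the start, and have each CpG in capitals. Where RefSeq lists several starts, the one farthest upstream was taken.
Foxa2, chr2:148046970-148047219, minus strand: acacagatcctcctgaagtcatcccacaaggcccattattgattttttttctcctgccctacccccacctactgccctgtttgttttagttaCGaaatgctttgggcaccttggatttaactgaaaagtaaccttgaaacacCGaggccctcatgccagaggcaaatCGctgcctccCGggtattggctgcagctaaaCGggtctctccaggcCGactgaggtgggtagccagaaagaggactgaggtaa
Amn, chr12:111270846-111271095, plus strand: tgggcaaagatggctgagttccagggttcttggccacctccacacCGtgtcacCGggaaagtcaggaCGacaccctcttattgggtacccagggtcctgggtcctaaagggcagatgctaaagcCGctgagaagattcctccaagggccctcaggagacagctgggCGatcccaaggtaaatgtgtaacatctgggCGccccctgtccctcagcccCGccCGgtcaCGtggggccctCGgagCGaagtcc
Pdgfra, chr5:75152001-75152250, plus strand: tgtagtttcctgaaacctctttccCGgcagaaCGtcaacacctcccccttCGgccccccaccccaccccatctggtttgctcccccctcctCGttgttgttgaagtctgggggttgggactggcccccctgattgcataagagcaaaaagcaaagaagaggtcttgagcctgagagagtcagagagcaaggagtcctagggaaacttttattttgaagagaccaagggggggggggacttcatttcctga
Dab2, chr15:6299539-6299788, plus strand: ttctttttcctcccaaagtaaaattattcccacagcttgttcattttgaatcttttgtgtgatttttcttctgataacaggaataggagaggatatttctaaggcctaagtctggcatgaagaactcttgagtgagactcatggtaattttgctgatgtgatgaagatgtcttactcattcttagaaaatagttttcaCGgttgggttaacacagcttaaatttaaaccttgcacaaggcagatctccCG
The windows of Foxa2, Amn, Pdgfra and Dab2 hold 6, 11, 4 and 2 CpG in that order, and the median over 32851 RefSeq windows was 6. Another start of Dab2 has 17, and further starts of Foxa2 have 20 and 13. The window of Foxa1 holds 21 and that of Cubn 2. These counts describe the sequence alone, since neither methylation nor binding was measured.

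The GATA factors bind the letters GATA through zinc fingers. Gata6, the factor required earliest for primitive endoderm, read 7.89 and 8.06 in control 1 and 2 and 7.70 and 8.26 in silenced 1 and 2. The silenced arrays lay on either side of the control pair, and the group means were 7.98 ± 0.12 and 7.98 ± 0.40 (SD, n = 2 each). The difference was 0.01 (SE 0.23, 95% confidence interval -0.60 to 0.62), an interval that allows up to a 1.53-fold difference in either direction.

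Gata4, which acts beside Gata6 in primitive endoderm and later in heart and gut, read 7.43 and 7.29 in control 1 and 2 and 7.72 and 7.30 in silenced 1 and 2. Silenced 1 was the highest array, while silenced 2 lay between the controls. The difference was 0.15 (SE 0.19, interval -0.35 to 0.66). Gata4 was the 1 gene of the 10 for which replicate 2 read lower than replicate 1, and it did so in both groups.

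Sox17 and Sox7 belong to the SoxF group of HMG-box factors. Sox17, which is needed in both primitive and definitive endoderm, read 5.30 and 5.55 in control 1 and 2 and 4.80 and 5.36 in silenced 1 and 2. Silenced 1 was the lowest array and silenced 2 lay inside the control range. The difference was -0.34 (SE 0.24, interval -0.98 to 0.29), and it was -0.62 without silenced 2 and -0.066 without silenced 1.

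Sox7, typical of parietal endoderm, read 5.95 and 6.40 in control 1 and 2 and 5.70 and 6.25 in silenced 1 and 2. The gap between replicates, 0.45 in the control group and 0.55 in the silenced group, exceeded the difference between the groups, which was -0.19 (SE 0.27, interval -0.91 to 0.52). For Sox7 and Sox17 the silenced array read lower than the control array of the same replicate number in both cases, a pairing that the labels do not state.

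Foxa1 and Foxa2 encode forkhead factors that can open closed chromatin. Foxa2, used by visceral endoderm, node and definitive endoderm, read 6.52 and 6.60 in control 1 and 2 and 6.26 and 6.27 in silenced 1 and 2. Both silenced arrays lay below both controls, and the arrays of each group were close together. The difference was -0.30 (SE 0.12, interval -0.61 to 0.02), or 1.23-fold lower, with an unadjusted p of 0.060 and an adjusted p of 0.681 in limma.

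Foxa1, expressed in the gut and its derivatives, read 6.36 and 6.51 in control 1 and 2 and 6.51 and 6.70 in silenced 1 and 2. The value of silenced 1 lay just inside the control range, so the groups overlapped. The difference was 0.17 (SE 0.14, interval -0.21 to 0.54) and lay on the other side of zero from Foxa2. It was 0.27 without silenced 1 and 0.07 without silenced 2. The difference between the 2 forkhead genes was not tested.

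Binding motifs of these 3 families were looked for in the 250-base windows of the 6 members that the promoter table holds (9 windows). The letters searched were AGATAA for the zinc finger factors, ACAAT for the SOX factors and TGTTTAC for the forkhead factors, each on both strands. A base could belong to several matches. Other letters around GATA were not searched, such as the TGATAA that the Dab2 window shown above holds. Matches stood in 1, 0 and 1 of the 9 windows, and in 9.99%, 27.7% and 3.17% of all windows. The match in Foxa2 is before its most downstream start, and the letters found in Foxa1 are those of its own family read on the opposite strand. Both are shown in 30 bases with the match in capitals.
Foxa2, chr2:148045630-148045659, minus strand: ctgttagccttgAGATAAtattaactttgt
Foxa1, chr12:57546234-57546263, minus strand: tatactgctttGTAAACAaagtgagggcca
A match is not a bound site, and none of the arrays' values bears on whether it is used.

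Pdgfra encodes the alpha receptor for platelet-derived growth factors and is an early surface marker of primitive endoderm, though fibroblasts and mesoderm carry it too. It read 5.92 and 6.05 in control 1 and 2 and 6.19 and 6.70 in silenced 1 and 2. Both silenced arrays lay above both controls, and silenced 2 stood apart. The difference was 0.46 (SE 0.21, interval -0.11 to 1.02), or 1.37-fold higher, with an unadjusted p of 0.089 and an adjusted p of 0.686 in limma. Without silenced 2 the difference was 0.20, and without silenced 1 it was 0.71.

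Dab2 encodes a clathrin adaptor that visceral endoderm needs to sort its surface receptors, and it is a target of GATA6 in mouse endoderm. It read 5.46 and 5.54 in control 1 and 2 and 5.70 and 6.47 in silenced 1 and 2. The control arrays were close together, silenced 1 lay a little above them, and silenced 2 far above. The difference of 0.58 (SE 0.29, interval -0.19 to 1.35) was the highest of the 10 genes, with an unadjusted p of 0.106 and an adjusted p of 0.695 in limma. It was 0.19 without silenced 2 and 0.97 without silenced 1, so its size depends on that array.

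Amn and Cubn encode the subunits of cubam, an endocytic receptor of visceral endoderm and kidney. It binds several proteins, among them intrinsic factor carrying vitamin B12. Amnionless, the product of Amn, holds cubilin in the membrane. Amn read 6.74 and 6.95 in control 1 and 2 and 6.44 and 6.46 in silenced 1 and 2, so both silenced arrays lay below both controls. The difference was -0.40 (SE 0.13, interval -0.76 to -0.04), or 1.32-fold lower, with an unadjusted p of 0.037 and an adjusted p of 0.674 in limma. The exact two-sided permutation test over the 4 arrays gave p = 0.333 for Amn, as for Foxa2, Pdgfra and Dab2, and that is the smallest p that 2 arrays against 2 allow.

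Cubn read 5.04 and 5.19 in control 1 and 2 and 5.01 and 5.32 in silenced 1 and 2. The silenced arrays spanned the control pair. The difference was 0.05 (SE 0.16, interval -0.39 to 0.49), and whether it differs from that of its partner Amn was not tested.

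**Figure D2:**
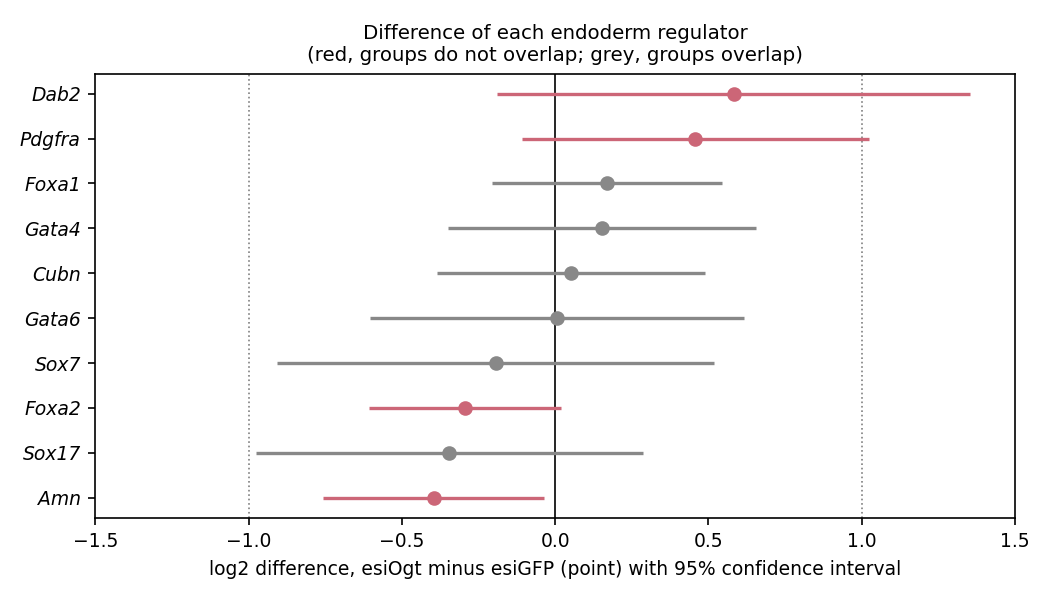
Log2 difference of each endoderm regulator (silenced minus control, horizontal axis) with its 95% confidence interval from limma, in red where the groups do not overlap and in grey where they do. The interval of Amn, -0.76 to -0.04, is the 1 that leaves out zero, and those of Dab2 and Pdgfra reach past the dotted line of a 2-fold difference.

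The 95% intervals stayed within a 2-fold difference in either direction for 8 of the 10 genes. Those of Pdgfra and Dab2 reached 2.03-fold and 2.56-fold higher. A p that missed the threshold therefore does not show that a gene stayed the same. For Amn and Foxa2 the difference exceeded the gap between replicates in each group, as it did for 28.6% of all gene symbols. For the other 8 genes at least 1 group had a wider gap between its own arrays.

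The arrays of replicate 2 read higher than those of replicate 1 in both groups for 9 of the 10 genes, all but Gata4. Of all gene symbols 32.6% did so, and 35.6% were lower in replicate 2 in both groups. The gap was narrow in the control arrays, with a median absolute value of 0.15 over the 10 genes, and wider in the silenced arrays, at 0.46. Over all gene symbols the medians were 0.15 and 0.18. The widest gap in the silenced arrays was that of Dab2, 0.78, followed by Gata6 with 0.56, Sox17 with 0.56, Sox7 with 0.55 and Pdgfra with 0.51. For Amn and Foxa2 it was 0.02 in each case. In a fit with the replicate number as a term, the difference of each gene between the groups was unchanged. The balanced layout fixes that outcome in advance, so it tells nothing about the replicate gap. The part of the replicate gap that the groups do not share was not tested. When arrays of the same number were set against each other, 4 genes were higher in both, 4 were lower in both, and Gata6 and Cubn went opposite ways. The shares of all gene symbols higher in both or lower in both were 35.3% and 32.5%.

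**Figure D3:**
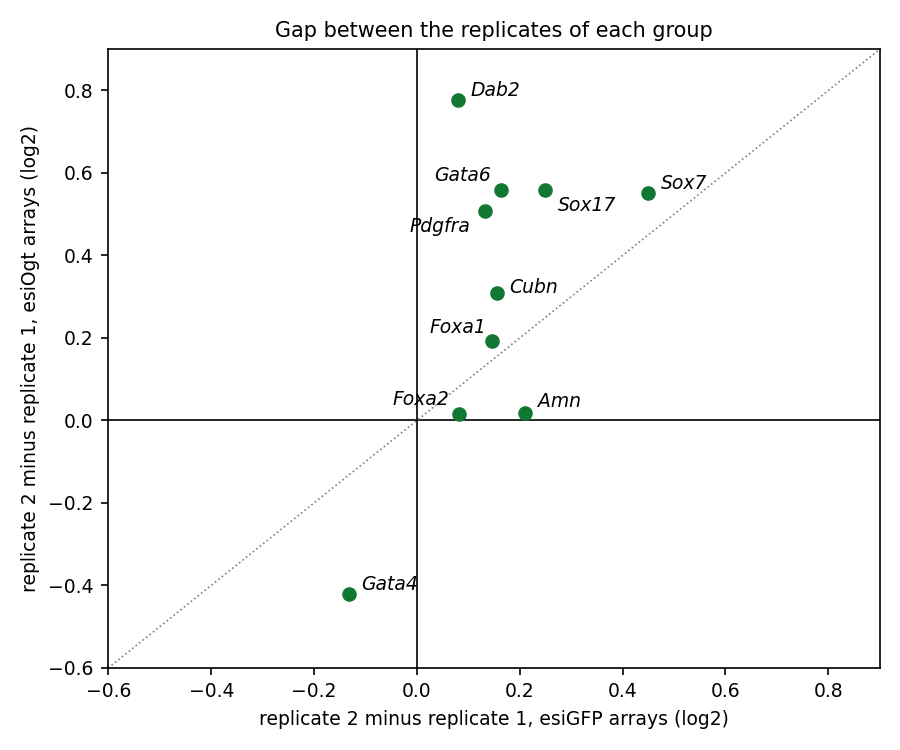
Replicate 2 minus replicate 1 on the log2 scale in the control arrays (horizontal axis) and in the silenced arrays (vertical axis), with 1 point per endoderm regulator and a dotted line where the gaps are equal. Gata4 alone is below zero on both axes, and Dab2 is highest with 0.08 in the control arrays and 0.78 in the silenced arrays.

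The probe sets of the 10 genes gave moderate to dim signals. The mean over the 4 arrays was above the median of all probe sets, 6.42, for Gata6, Gata4, Foxa1 and Amn and below it for the other 6, and all 10 lay between the quartiles of 4.78 and 8.63. Signals of different probe sets also depend on the probes, so the genes are not ranked by level. No detection call was used here. All 11 embryonic stem cell markers, such as Pou5f1 and Nanog, were above the upper quartile. None of the 12 fibroblast markers was, and 7 of the 12 were below the median. Their mean level was 5.60 and 5.59 in the control arrays and 5.62 and 5.58 in the silenced arrays. Fbn1 was the 1 fibroblast marker at an unadjusted p under 0.05, at 0.54 (SE 0.15, limma), while its other probe set stood at -0.03 (SE 0.12). Col1a1, a main collagen of fibroblasts, stood at -0.30 (SE 0.14). The part of such cells in the value of Pdgfra, which fibroblasts share, was not tested. The stem cell markers had 8 higher and 3 lower, but 5 higher and 6 lower without control 1 or without silenced 2. Esrrb stood at 0.31 (SE 0.11) and Pou5f1 at 0.01 (SE 0.11). Lin28a, read from the brighter of its 2 probe sets, stood at -0.34 (SE 0.15), with both silenced arrays below both controls.

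A further 138 genes that work with these 10 or mark the cells around them were measured, in 9 lists. None was called in limma, and 13 had an unadjusted p under 0.05, of which 10 were higher and 3 lower. That is 9.42% of them, beside 6.06% of all gene symbols (3.40% higher and 2.66% lower). With dim probe sets left out, the shares were 12.5% of the 104 partner genes that remained and 8.39% of the gene symbols. The excess depends on single arrays. Without control 1 the shares were 2.17% of these genes and 2.77% of all gene symbols, and without silenced 2 they were 2.17% and 3.12%. Without control 2 they were 3.62% and 1.80%, and without silenced 1 they were 8.70% and 6.20%.

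Among the partners of the transcription factors, the list of GATA, SOX and FOXA relatives and cofactors had 5 genes higher and 5 lower, with a median difference of 0.07. The median was -0.11 without silenced 2, -0.02 without control 2, near zero without control 1 and 0.13 without silenced 1, so the list has no settled direction. Zfpm1, which encodes the GATA cofactor FOG1, read 8.29 and 8.27 in control 1 and 2 and 7.64 and 7.77 in silenced 1 and 2. Both silenced arrays were well below the controls, and the difference was -0.58 (SE 0.12, unadjusted p = 0.0071 and adjusted p = 0.674 in limma). Gata1, a blood cell factor, stood at 0.39 (SE 0.16) and its partner Lmo2 at 0.53 (SE 0.22). Zfpm1, Gata1 and Lmo2 were named for the smallest p of this list. Of the relatives named whatever their values, Foxa3 stood at 0.27 (SE 0.24), Sox18 at -0.13 (SE 0.13) and Gata5 at -0.10 (SE 0.20).

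Of 13 other endoderm transcription factors, 8 were higher and 5 lower, with a median of 0.10 and 0 at an unadjusted p under 0.05 in limma. Without control 2 there were 6 higher and 7 lower, with a median near zero, and without another array the median was between 0.03 and 0.07. Hnf4a, a factor of visceral endoderm and liver, was below the control range on both silenced arrays, at -0.39 (SE 0.15, unadjusted p = 0.057 in limma). Gsc, a factor of the anterior streak, stood at -0.23 (SE 0.13) and Sall4, which stem cells and primitive endoderm both use, at 0.29 (SE 0.19).

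The 23 genes of the FGF input had 15 higher and 8 lower, a median of 0.05 and 0 at an unadjusted p under 0.05 in limma. Without silenced 1 there were 11 higher and 12 lower, and the medians without 1 array ran from -0.01 to 0.02. The ligand gene Fgf4 stood at 0.23 (SE 0.17), the receptor gene Fgfr2 at -0.06 (SE 0.13), and Nanog, which opposes Gata6, at 0.06 (SE 0.14). The phosphatase gene Ptpn11 was at 0.25 (SE 0.12), the adaptor gene Grb2 at 0.22 (SE 0.13) and the receptor gene Fgfr3 at -0.26 (SE 0.13).

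The 5 PDGF ligands and receptors other than Pdgfra all had a difference above zero, though only 4 did so after quantile normalization and 4 without control 2 or without silenced 1. The median was 0.27, and it was 0.03 in both of those fits without 1 array and 0.07 without silenced 2. None stood at an unadjusted p under 0.05 in limma. Pdgfc, a ligand of the alpha receptor, read 8.67 and 9.03 in control 1 and 2 and 9.16 and 9.74 in silenced 1 and 2. Its silenced arrays lay above the controls, as those of Pdgfra did, and replicate 2 read higher than replicate 1 in each group. The difference was 0.60 (SE 0.26, unadjusted p = 0.073 in limma). Pdgfa, the other main ligand of that receptor, overlapped between the groups at 0.29 (SE 0.20), as did Pdgfrb at 0.27 (SE 0.27).

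The endocytosis list, with genes that act with Dab2, Amn and Cubn, had 18 of 23 higher and 5 lower, with a median of 0.11. At an unadjusted p under 0.05 in limma there were 5, all higher, and the groups did not overlap for 16 of the 23, where 39.5% of all gene symbols showed that. That share includes dim probe sets, while 17 of the 23 were above the upper quartile of signal. The share without overlap among bright genes alone was not counted. In fits without 1 array 16 to 18 of the 23 were higher, but fewer stood at that p. Without control 1 they were Dab1 and Tcn2, both higher, and without silenced 2 Dab1 alone. Without control 2 they were Lrp2 and Dab1, which were higher, and Myo6, which was lower, and without silenced 1 they were Lrp2, Lrpap1 and Dab1, which were higher, and Gif, which was lower. Lrp2, which encodes megalin, the large receptor that carries cubilin and binds Dab2, read 7.47 and 8.14 in control 1 and 2 and 8.38 and 9.35 in silenced 1 and 2. The silenced arrays lay above both controls, but the arrays of each group were far apart, and the difference was 1.06 (SE 0.41, unadjusted p = 0.057 in limma).

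Dab1, the neuronal relative of Dab2, read 7.92 and 8.02 in control 1 and 2 and 8.65 and 8.98 in silenced 1 and 2, a clear gap between the groups. Its difference was 0.85 (SE 0.16, unadjusted p = 0.0050 and adjusted p = 0.674 in limma). Lrpap1, the chaperone of the megalin family, stood at 0.43 (SE 0.15) and Cd320, the receptor for the B12 carrier transcobalamin, at 0.41 (SE 0.12). Amn, at -0.40, thus lay on the other side of zero from most genes of this list.

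Products of parietal and visceral endoderm were higher for 16 and lower for 12 of the 28 measured, with a median of 0.04. Without silenced 2 there were 14 of each with a median of 0.01, and without silenced 1 the median was 0.11. Those at an unadjusted p under 0.05 in limma were 3 basement membrane genes, all higher: Nid1 at 0.55 (SE 0.13), Col4a2 at 0.40 (SE 0.12) and Lama1 at 0.34 (SE 0.12). That count was 0 without control 1, without control 2 or without silenced 2, and without silenced 1 it held Nid1 with Lamb1 and Krt8. Afp, the fetal serum protein of visceral endoderm, stood at -0.25 (SE 0.12). The list's mean level was 7.27 and 7.32 in the control arrays and 7.31 and 7.39 in the silenced arrays.

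Surface and signal genes of definitive endoderm were higher for 6 and lower for 9 of 15, with a median of -0.11. Epcam, an epithelial adhesion gene that stem cells also express, read 9.31 and 9.20 in control 1 and 2 and 8.81 and 8.79 in silenced 1 and 2, with a difference of -0.45 (SE 0.12, unadjusted p = 0.016 in limma). Trh, a hormone precursor gene, stood at -0.46 (SE 0.13, unadjusted p = 0.022 in limma), and Shh, a signal of gut and notochord, at -0.28 (SE 0.12). For these 3 genes both silenced arrays lay below both controls, as for Foxa2. Epcam and Trh were the 2 genes of the list at an unadjusted p under 0.05. Without control 2 it was Trh alone, without silenced 1 neither of them but the peptidase gene Cpm, which was higher, and without control 1 or without silenced 2 there were 0. The list's median ran from -0.18 without silenced 2 to -0.07 without control 2.

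**Figure D4:**
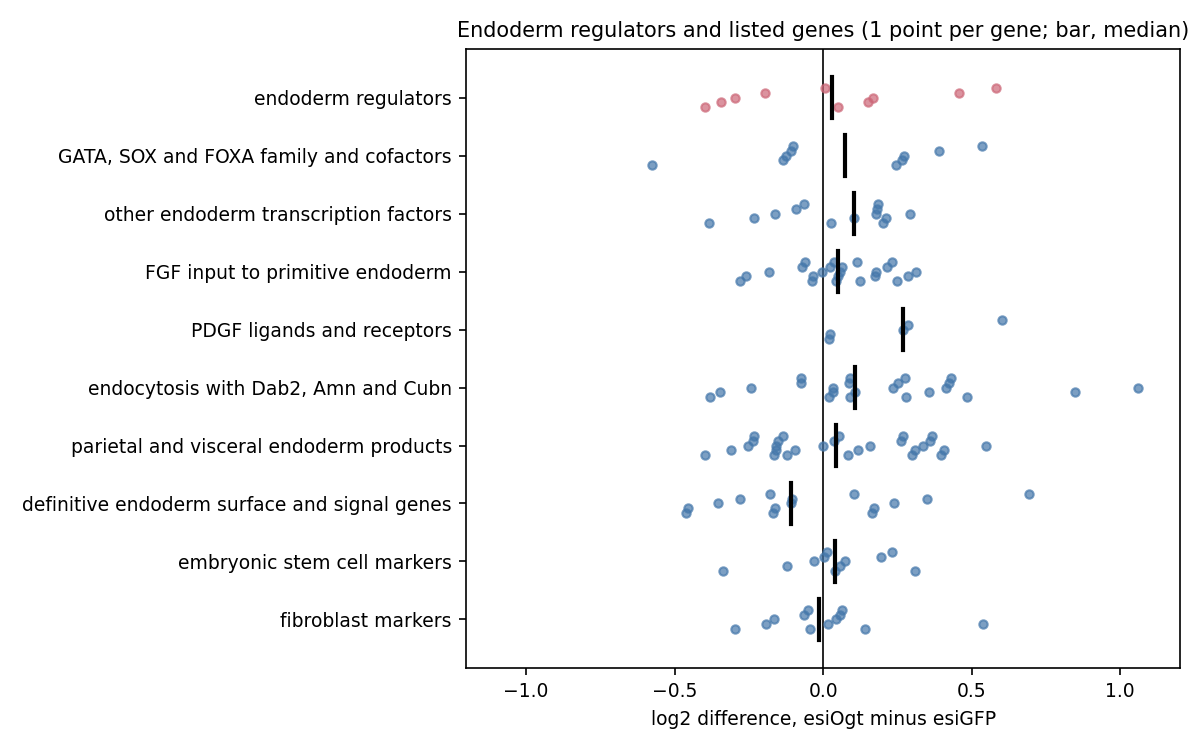
Log2 difference (silenced minus control, horizontal axis) of the 10 endoderm regulators and of the genes in 9 lists, with 1 point per gene and a bar at the median. The list medians run from -0.11 for definitive endoderm surface and signal genes to 0.27 for PDGF ligands and receptors, and the point farthest right is Lrp2 at 1.06.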

How the data were processed

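RNA of 4 samples was measured on one-colour arrays from 150 ng of total RNA, per the labels' protocols. The deposited log2 values were made by the authors with RMA, per the submitters' processing notes, which also name limma. Their versions, the array's annotation and its genome build are not stated in those notes or the labels. The authors' deposited table also holds a p-value and a log2 fold change per probe set, and the fit below came within 4.84e-08 and 4.55e-08 of them. The groups were compared with limma 3.58.1 in R 4.3.3 (lmFit and eBayes, group as the only term, 2 residual and 4.38 total degrees of freedom), with Benjamini-Hochberg adjustment over 34760 probe sets. A gene was read from its probe set with the highest mean. The fit was tested on simulated data with independent noise, as a check of the code alone. Replicate gaps of the real groups correlate, so that check does not bear on the p-values given here. Batches could not be looked for, since no scan date is among the sources used here.

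The members and the gene lists were chosen with earlier results of these data known. Genes named are the 10 members, Ogt, up to 3 genes per list with the smallest p, and 12 fixed partners. Alternatives were 2 other array scalings, 2 filters on probe sets, 2 variance priors, the replicate number as a block, averaged probe sets, other thresholds and leaving out each array. All 10 members kept their symbol in RefSeq (GRCm38.p6), looked up by accession. The number of arrays limits the precision.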

Additional observations from a re-analysis of the deposited data

How the results depend on the processing

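In the fits tried, 0 probe sets, 0 of the 10 genes and 0 of the partner genes were called, and the smallest adjusted p of any of the 10 genes was 0.310. In the fit described above 0 of the 10 genes had an unadjusted p under 0.01 in limma. At a p under 0.05 there were 2 of the 10 (Amn and Foxa2) among probe sets with 1 gene symbol. There were also 2 when probe sets of a gene were averaged. Of all gene symbols 7.96% and 7.90% stood there in those fits, beside 6.06% in the fit described above. The labels do not say that a replicate number marks a shared culture or day. The gaps between replicates of the groups correlated across probe sets (r = 0.479, a description), and with the replicate number as a block 3 of the 10 genes (Amn, Pdgfra and Foxa2) and 28 partner genes stood at that level, with 0 called. In the same fit so did 13.4% of all gene symbols and 20.3% of the partner genes. Leaving out 1 array at a time gave 0 to 2 of the 10 genes, 3 to 12 partner genes against 13, and a median difference of -0.19 to 0.14 against 0.03. The lowest median came without silenced 2. In those fits the difference ran from -0.27 to 0.29 for Gata6, from -0.10 to 0.21 for Cubn, from -0.058 to 0.36 for Gata4 and from -0.47 to 0.081 for Sox7, so these 4 genes have no settled direction. Gata6 also turned to -0.018 after quantile normalization. The other 6 genes kept their direction wherever they were fitted. For Dab2, Pdgfra, Amn and Foxa2 leaving out 1 array could not turn it, since their groups do not overlap. Sizes without 1 array ran from -0.62 to -0.066 for Sox17, 0.073 to 0.27 for Foxa1 and 0.19 to 0.97 for Dab2. They ran from 0.20 to 0.71 for Pdgfra, -0.50 to -0.29 for Amn and -0.34 to -0.25 for Foxa2. Of 114 alternative values over the 10 genes 8 changed sign. The filters, variance priors, block and averaged probe sets left each difference they held unchanged, so those values could not change sign. Leaving out dim probe sets removed 6 of the 10 genes. Counting the lists again without each array was added after seeing the data. With 2 arrays per group and no detection call, small differences of dim probe sets could not be resolved.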
